A study of Mus musculus with 8 samples.

Results

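The 9 genes described here belong to the red blood cell lineage and were followed in the RNA of sorted early B cells: the adult α-globins Hba-a1 and Hba-a2, the adult β-globins Hbb-bs and Hbb-bt, and Alas2, Ahsp, Slc4a1, Klf1 and Gata1. They were chosen by gene symbol, and 8 of the 9 were measured among 52550 genes; Ahsp, a chaperone of free α-globin, was not analysed here. Cells came from the bone marrow of C57BL/6J wild type (WT) mice or lactoferrin knockout (Lf-/-) mice of the same strain, with littermates matched for age as controls. The animals' ages are not given in the sources used here, and no group was treated. The sources used here name no cell type to which the knockout is limited. According to the study, pre-pro-B cells were sorted from AA4.1+B220+ cells and pro-B cells as B220+CD43+IgM-. The 7 libraries were 2 WT pre-pro-B, 1 WT pro-B, 2 Lf-/- pre-pro-B and 2 Lf-/- pro-B libraries; the other sample of WT pro-B cells was not used here. The study's methods name several mice per group, but neither they nor the labels say how mice map to libraries, so every p-value measures only the spread between these samples, which may be technical.

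Hemoglobin is a tetramer of α- and β-globin chains, each carrying a heme, and it fills the maturing red cell. The first step of heme synthesis in this lineage is made by Alas2, and the globin and heme genes are switched on by the transcription factors Gata1 and Klf1. Bone marrow is the place where both red cells and B cells are made in the adult. In a bulk sample, fewer cells of a type and less RNA per cell cannot be told apart.

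The copies of each globin gene are nearly the same sequence, which bears on every value below. All 4 genes are protein coding. In GRCm38, Hba-a1 (ENSMUSG00000069919) lies at chr11:32283511-32284465 on the plus strand and Hba-a2 (ENSMUSG00000069917) at chr11:32296489-32297298 on the plus strand. The coding sequences of the pair are 429 bases each and differ at 1 base, C381T, counted from 1 at the A of the start codon with the Hba-a1 base first. Hbb-bs (ENSMUSG00000052305) lies at chr7:103826534-103828096 and Hbb-bt (ENSMUSG00000073940) at chr7:103812524-103813996, both on the minus strand. Their coding sequences are 444 bases each and also differ at 1 base, C417T, with the Hbb-bs base first. By contrast, the coding sequences of Hba-a1 and Hbb-bs are 57.8% identical. The stretches around the 2 differing bases are shown here, within the coding part of a single exon in each gene, 5′ to 3′ on the coding strand, with the differing base in capitals.
Hba-a1: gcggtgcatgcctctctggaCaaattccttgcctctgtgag
Hba-a2: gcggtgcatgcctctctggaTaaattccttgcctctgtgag
Hbb-bs: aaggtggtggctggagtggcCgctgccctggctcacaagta
Hbb-bt: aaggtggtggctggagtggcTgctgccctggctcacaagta
These stretches lie at chr11:32284323-32284363, chr11:32297140-32297180, chr7:103826672-103826712 and chr7:103812663-103812703, in the order shown (GENCODE M21). A coding read that misses these bases fits both copies, so the split of reads within a pair is uncertain, and the sum of a pair is the firmer value.

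Values were taken as FPKM, a unit read from the values and not stated beside them: fragments scaled to transcript length and to the mapped fragments of the library, so levels can be compared between genes. The 4 globin genes made up nearly all of the summed level of the 8 genes, between 99.7% and 99.9% in each library. Their summed FPKM was 55725 and 14725 in WT pre-pro-B replicates 1 and 2, 41176 in the WT pro-B library, 29513 and 105353 in Lf-/- pre-pro-B replicates 1 and 2, and 75509 and 37734 in Lf-/- pro-B replicates 1 and 2. The highest library was 7.15-fold above the lowest, and the groups overlapped. As a share of the summed FPKM of all genes, the globins took 6.98% and 1.90% in WT pre-pro-B cells, 4.93% in WT pro-B cells, 3.54% and 15.2% in Lf-/- pre-pro-B cells, and 10.3% and 5.15% in Lf-/- pro-B cells. The shares of a pair of libraries from the same group differed widely, and the ranges of the genotypes overlapped. With all 8 genes, the mean share was 4.45% ± 3.60 (SD, n = 2) in WT pre-pro-B, 9.38% ± 8.25 (SD, n = 2) in Lf-/- pre-pro-B and 7.72% ± 3.62 (SD, n = 2) in Lf-/- pro-B libraries, against 4.94% in the single WT pro-B library.

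**Figure D1:**
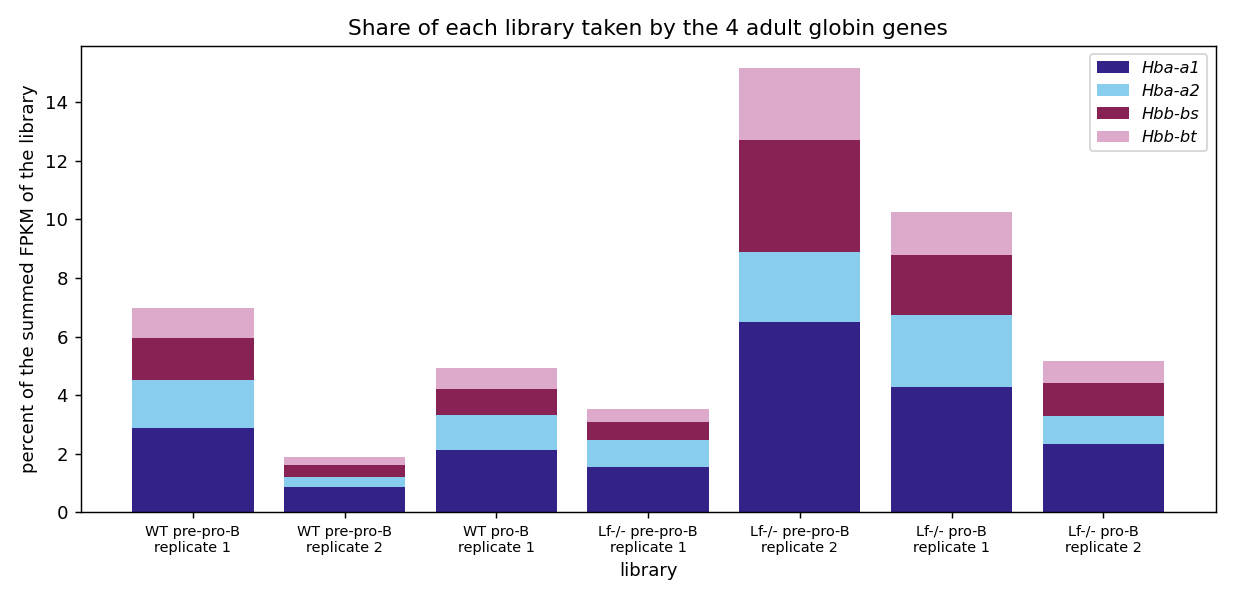
Stacked bars give the percent of the summed FPKM of each of the 7 libraries that came from Hba-a1, Hba-a2, Hbb-bs and Hbb-bt. The bars run from 1.90% in WT pre-pro-B replicate 2 to 15.2% in Lf-/- pre-pro-B replicate 2, and libraries of the same group differ widely.

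Some facts of the libraries stand beside these shares. Markers of the sorted cells themselves were sparse: 16 early B lineage genes took between 0.0286% and 0.443% of the summed FPKM of a library. A list of 18 neutrophil genes, most of them of granules, took between 27.6% and 55.7% of the summed FPKM of a library. This share was lowest where the globin share was highest, in Lf-/- pre-pro-B replicate 2. S100a8 (52882 to 150489 FPKM) and S100a9 (48352 to 113079 FPKM) were the highest genes of the list and do not code for granule proteins. Without the 18 genes in the total, the share of the 8 genes ran from 3.29% in WT pre-pro-B replicate 2 to 21% in Lf-/- pre-pro-B replicate 2. This was a 6.40-fold range, against 7.98-fold with them. Lf-/- pre-pro-B replicate 2 also stood apart in having 12172 genes above 0 FPKM, against 19477 to 20250 in the other 6 libraries. Of 2244 genes at 10 FPKM or more in all other libraries, 14 were listed at 0 in it, and the same count was 0 in each of the other 6 libraries. In those 6 libraries the steps between low values correspond to about 11000000 to 16000000 fragments. In Lf-/- pre-pro-B replicate 2 only 464 genes with low values could be used for the steps, against 1476 to 2011 in the others. These were taken as too few, and its steps were the least even, which leaves its depth unknown. The part of these differences in the erythroid values was not tested. Ltf, the targeted gene, was at 2143, 2731 and 2650 FPKM in the WT libraries and at 88.2 to 168 FPKM in the Lf-/- libraries.

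Among the α-globins, Hba-a1 was the highest member in 7 of 7 libraries and ranked between 3 and 14 among all genes of a library. Its level was 22979 and 6598 FPKM in WT pre-pro-B, 17897 FPKM in WT pro-B, 13036 and 45060 FPKM in Lf-/- pre-pro-B, and 31445 and 17151 FPKM in Lf-/- pro-B libraries. The lower Lf-/- pre-pro-B value lay between the 2 WT pre-pro-B values, so the genotypes overlapped. For Hba-a2 the levels were 13214 and 2633 FPKM in WT pre-pro-B, 9971 FPKM in WT pro-B, 7578 and 16740 FPKM in Lf-/- pre-pro-B, and 18181 and 6917 FPKM in Lf-/- pro-B libraries. Here Lf-/- pro-B replicate 1 and not Lf-/- pre-pro-B replicate 2 was highest, and the groups overlapped again.

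Among the β-globins, Hbb-bs was above Hbb-bt in 7 of 7 libraries. The level of Hbb-bs was 11380 and 3248 FPKM in WT pre-pro-B, 7372 FPKM in WT pro-B, 5067 and 26592 FPKM in Lf-/- pre-pro-B, and 14971 and 8236 FPKM in Lf-/- pro-B libraries. Hbb-bt was at 8153 and 2246 FPKM, 5936 FPKM, 3832 and 16961 FPKM, and 10912 and 5430 FPKM in the same order. Both genes were lowest in WT pre-pro-B replicate 2 and highest in Lf-/- pre-pro-B replicate 2, with overlap of the genotypes. The order of Hba-a2 and Hbb-bs was not fixed: Hba-a2 was higher in 4 of 7 libraries, the 4 numbered replicate 1, and lower in the 3 numbered replicate 2.

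Ratios within a library do not depend on its scaling. Hba-a1 was 1.72 to 1.79 times Hba-a2 in the 4 libraries numbered replicate 1 and 2.48 to 2.69 times in the 3 numbered replicate 2. Hbb-bs was 1.24 to 1.40 times Hbb-bt in the former and 1.45 to 1.57 times in the latter. The α-globin sum was 1.85 to 2.32 times the β-globin sum in the former and 1.42 to 1.76 times in the latter. None of the 3 ratios overlapped between the replicate numbers, whereas all of them overlapped between genotypes and between stages. Beside this, 6.62% of 10793 genes had FPKM values that did not overlap between replicate numbers, in either direction. That share is of the levels of single genes, which depend on the scaling, and the matching share for ratios was not computed. The labels give the number only as a replicate and name nothing that same-numbered libraries share, and the split of the ratios was seen in the data and was not tested. Over the 7 libraries the ratios were 2.09 ± 0.44, 1.41 ± 0.11 and 1.86 ± 0.29 (SD, n = 7).

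**Figure D2:**
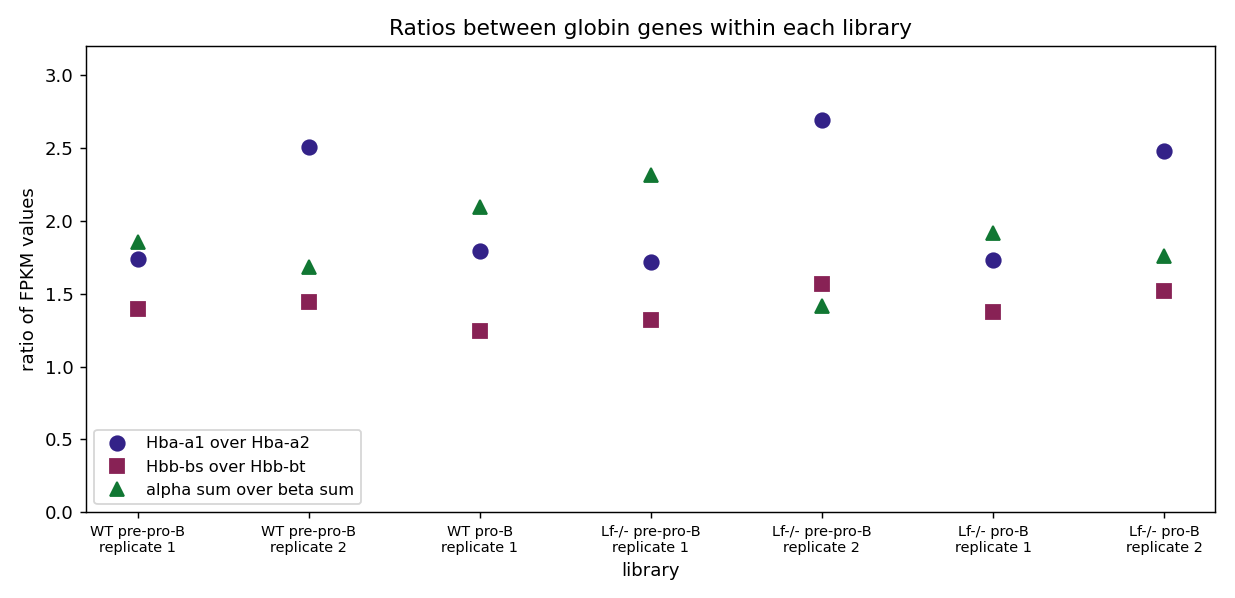
Points give the ratio of FPKM values of Hba-a1 to Hba-a2, of Hbb-bs to Hbb-bt, and of the α-globin sum to the β-globin sum in each of the 7 libraries. The first ratio sits at 1.72 to 1.79 in the replicates 1 and at 2.48 to 2.69 in the replicates 2.

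Alas2 (ENSMUSG00000025270, chrX:150547375-150570638, plus strand), the first enzyme of heme synthesis, had the widest range of the members that were above 0 in every library. It stood at 32.3 and 6.26 FPKM in WT pre-pro-B, 9.57 FPKM in WT pro-B, 8.69 and 266 FPKM in Lf-/- pre-pro-B, and 32.3 and 18.6 FPKM in Lf-/- pro-B libraries. Lf-/- pre-pro-B replicate 2 was 18.9-fold above the median of the other 6 libraries, and its partner was among the lowest. The highest library was 42.5-fold above the lowest, or 5.16-fold without Lf-/- pre-pro-B replicate 2. The globins were 396 times Alas2 in that library and 1727 to 4304 times Alas2 in the others, so Alas2 stood out further there than the globins did.

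Slc4a1 (ENSMUSG00000006574, chr11:102348824-102366203, minus strand) codes for band 3, the anion exchanger of the red cell membrane. It was low throughout, at 5.68 and 2.65 FPKM in WT pre-pro-B, 5.17 FPKM in WT pro-B, 2.80 and 4.64 FPKM in Lf-/- pre-pro-B, and 8.55 and 4.6 FPKM in Lf-/- pro-B libraries. The range was 3.22-fold, with the genotypes overlapping, and Lf-/- pre-pro-B replicate 2 was at 0.95 of the median of the others. The globin sum was 5547 to 22686 times Slc4a1. At the depth read from the other 6 libraries, these values correspond to 140 to 427 fragments.

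Klf1 (ENSMUSG00000054191, chr8:84901928-84905291, plus strand) is a transcription factor that activates adult β-globin. Its levels were 42.8 and 30.3 FPKM in WT pre-pro-B, 32.1 FPKM in WT pro-B, 24.3 and 77.6 FPKM in Lf-/- pre-pro-B, and 28.2 and 59.7 FPKM in Lf-/- pro-B libraries. The lowest and the highest of the 7 values were both in Lf-/- pre-pro-B cells. Klf1 was above Alas2 in 5 of 7 libraries, the exceptions being Lf-/- pre-pro-B replicate 2 and Lf-/- pro-B replicate 1.

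Gata1 (ENSMUSG00000031162, chrX:7959260-7978071, minus strand) is a transcription factor of red cells that is also used by megakaryocytes, mast cells and eosinophils. It was at 18.3 and 12.1 FPKM in WT pre-pro-B, 11.5 FPKM in WT pro-B, 8.05 FPKM in Lf-/- pre-pro-B replicate 1, and 13.2 and 18.5 FPKM in Lf-/- pro-B libraries, and the value listed for Lf-/- pre-pro-B replicate 2 was 0. The library with the highest globin level was therefore the only library of the 7 with Gata1 listed at 0. In pre-pro-B cells both Lf-/- values lay below both WT values, the only member without overlap; 17.7% of 9720 genes were lower in that way and 15.5% were higher. Markers of the other lineages that use Gata1 also differed between these libraries. The summed level of 10 megakaryocyte and platelet genes was 103 to 114 FPKM in WT and 25.0 to 54.1 FPKM in Lf-/- pre-pro-B libraries. In Lf-/- pre-pro-B replicate 2, 8 of the 10 were listed at 0, Pf4 and Itga2b among them. The others, Gp9 (20.5 FPKM) and Gp1bb (4.56 FPKM), had their highest values of the 7 libraries there. The sum of 8 mast cell and basophil genes was 493 to 621 FPKM in WT pre-pro-B, 521 FPKM in WT pro-B, 215 to 273 FPKM in Lf-/- pre-pro-B and 2268 to 3108 FPKM in Lf-/- pro-B libraries. Most of that sum came from Prss34 (120 to 2095 FPKM) and Mcpt8 (56.7 to 855 FPKM). Cma1 and Tpsb2 of the same list were above 0 only in Lf-/- pro-B replicate 2, at 0.72 and 0.53 FPKM. The sum therefore cannot be read as a level of mast cells. For 8 eosinophil genes the sum was 4123 to 4419, 2612, 1115 to 3138 and 621 to 2833 FPKM in the same order of groups. Of the eosinophil genes, Prg2 was at 332 FPKM or more in every library. Ccr3 and Siglecf were listed at 0 in Lf-/- pre-pro-B replicate 2 and did not exceed 2.97 FPKM in any library. Epx, Ear1 and Il5ra had their highest values in Lf-/- pre-pro-B replicate 2. The part of these cell types in the Gata1 values was not tested.

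**Figure D3:**
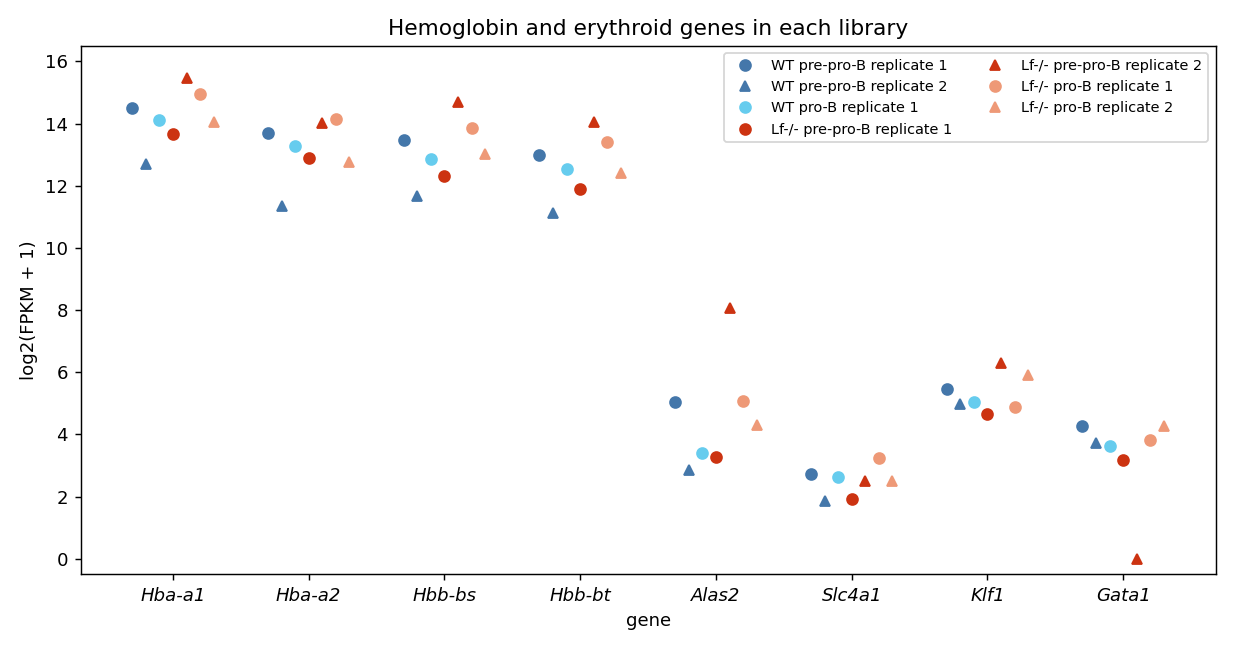
Points give log2(FPKM + 1) of the 8 genes in each of the 7 libraries, with colour for the group, circles for replicate 1 and triangles for replicate 2. The globins lie far above the other genes, Alas2 has a high point (266 FPKM) for Lf-/- pre-pro-B replicate 2, and the lowest point of Gata1, listed at 0, is in the same library.

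The effect of the knockout was then asked in pre-pro-B cells, with limma on log2(FPKM + 1). None of the 8 members reached an unadjusted p of 0.05, against 2.92% of 9720 genes, and no gene passed after Benjamini-Hochberg adjustment. The difference in log2(FPKM + 1), Lf-/- minus WT with its SE, was 0.98 ± 0.91 for Hba-a1, 0.93 ± 0.91 for Hba-a2, 0.93 ± 1.01 for Hbb-bs and 0.91 ± 0.96 for Hbb-bt. Alas2 differed by 1.71 ± 1.61, Slc4a1 by -0.09 ± 0.54, Klf1 by 0.27 ± 0.64 and Gata1 by -2.40 ± 1.05. Gata1, the member nearest to the threshold, did not pass (limma, adjusted p = 0.941). Leaving out Lf-/- pre-pro-B replicate 1 (-3.99) or WT pre-pro-B replicate 2 (-2.68) brought Gata1 past the unadjusted threshold, as did fitting all 7 libraries together. The median difference of the 8 members was 0.92, and that of all genes was 0.03. The values depended on single libraries of both genotypes. Without Lf-/- pre-pro-B replicate 2 the differences were 0.082 for Hba-a1, 0.36 for Hba-a2, -0.26 for Hbb-bs, -0.16 for Hbb-bt, -0.68 for Alas2, -0.55 for Klf1 and -0.81 for Gata1. Without WT pre-pro-B replicate 2 they were 0.077 for Hba-a1, -0.23 for Hba-a2, 0.029 for Hbb-bs, -0.016 for Hbb-bt, 0.61 for Alas2 and 0.029 for Klf1. Without WT pre-pro-B replicate 1, on the other hand, all 4 globins passed the unadjusted threshold of 0.05, at 1.84 to 2.10 above WT.

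In pro-B cells there was 1 WT library, so the 2-fold rule carried no test. Alas2 alone of the 8 members was 2-fold or more apart with both Lf-/- libraries on the same side, 1.27 higher in Lf-/- on the log2 scale; 12.4% of 10793 genes were higher in that way and 1.12% lower. The globins differed by 0.17 (Hba-a2) to 0.59 (Hbb-bs) on the log2 scale, Slc4a1 by 0.24, Klf1 by 0.35 and Gata1 by 0.41, while the median of all genes was shifted by 0.48. These values depend on the scaling: with the libraries scaled by median ratios, Alas2 differed by 0.65, below 2-fold, as it was without Lf-/- pro-B replicate 1 (0.89), and the signs of the others turned, to -0.50 to -0.080 for the globins, -0.33 for Slc4a1, -0.31 for Klf1 and -0.21 for Gata1. Taken as a contrast in a fit of all 7 libraries, which assumes that the lone WT library varies like the others, none of the 8 members reached an unadjusted p of 0.05, against 4.33% of 10793 genes.

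Over both stages, with 4 Lf-/- against 3 WT libraries and stage in the model, 0 of 8 members passed an unadjusted p of 0.05, beside 7.17% of 10793 genes; 20 genes, or 0.185%, passed the adjusted limma threshold and no member did. Differences in log2(FPKM + 1) were 0.74 ± 0.57 (SE) for Hba-a1, 0.63 ± 0.61 for Hba-a2, 0.80 ± 0.63 for Hbb-bs, 0.70 ± 0.62 for Hbb-bt and 1.54 ± 1.02 for Alas2. Slc4a1 differed by 0.04 ± 0.37, Klf1 by 0.30 ± 0.45 and Gata1 by -1.27 ± 0.81, and the signs of Slc4a1 and Klf1 turned with median-ratio scaling, to -0.26 and -0.054. Gata1 had the lowest value of the members (limma, adjusted p = 0.690). The median of the members was 0.66, that of all genes 0.21, and scaling by median ratios moved the latter to -0.06 and the globins to 0.26 to 0.43. No member separated the genotypes over the 7 libraries without overlap, against 11% of genes.

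Between stages, pro-B minus pre-pro-B over both genotypes, 0 of 8 members passed an unadjusted p of 0.05, beside 2.41% of 10793 genes, and 1 gene (0.00927%) passed after adjustment. The globins differed by 0.07 (Hbb-bs) to 0.30 (Hba-a2), with SEs of 0.57 to 0.63, Alas2 by -0.82 ± 1.02, Slc4a1 by 0.52 ± 0.37, Klf1 by -0.11 ± 0.45 and Gata1 by 1.34 ± 0.81. The interaction, the genotype difference in pro-B minus that in pre-pro-B cells, again passed for 0 of 8, beside 2.74% of genes. The largest was that of Gata1, 2.81 ± 1.48 (limma, adjusted p = 0.990). Of the mast cell and basophil genes, all 5 tested had a higher interaction at an unadjusted p of 0.05, as had 2.53% of all genes, and their part in the value of Gata1 was not tested.

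**Figure D4:**
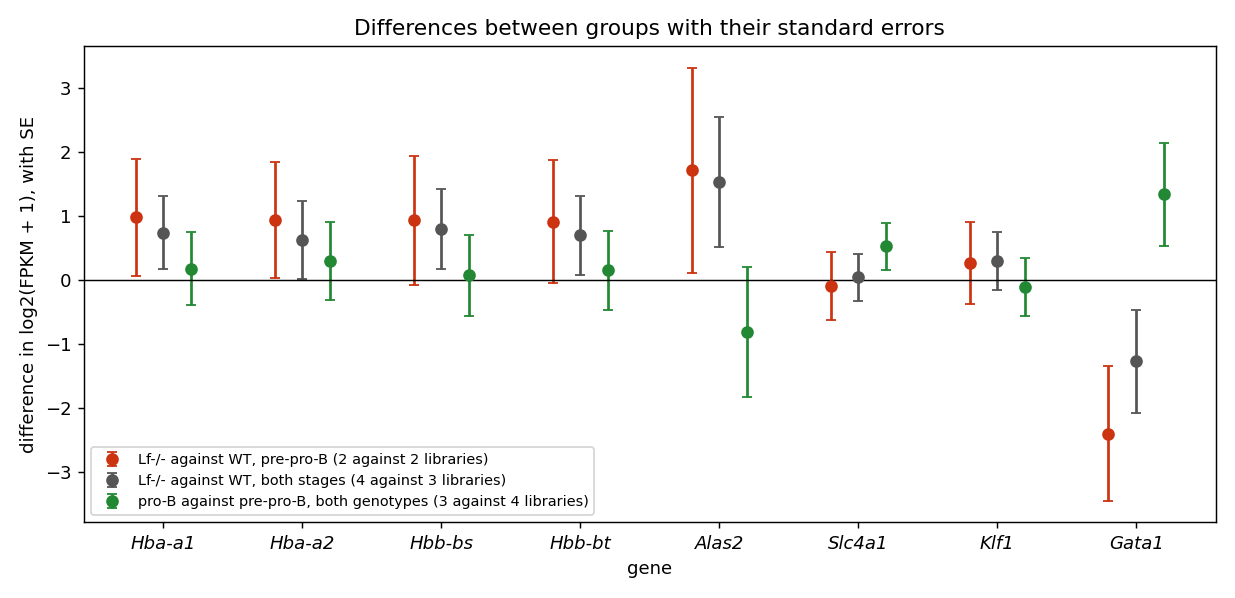
Points give differences in log2(FPKM + 1) for 3 contrasts with their limma standard errors as bars. The bars of Hba-a1, Hba-a2, Alas2 and Gata1 leave 0 out in both genotype contrasts, and no member reached an unadjusted p of 0.05 in any of the 3.

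The members did not move as a single group across libraries. Over the 7 libraries, which share their scaling, the log2(FPKM + 1) of the globin sum had a Pearson r of 0.96 or more with each globin, 0.87 with Alas2, 0.74 with Slc4a1, 0.52 with Klf1 and -0.51 with Gata1. Without Lf-/- pre-pro-B replicate 2 (n = 6), r was 0.88 with Alas2, 0.92 with Slc4a1, 0.16 with Klf1 and 0.36 with Gata1. Klf1 and Gata1 went together in those 6 libraries, with r = 0.88, against -0.54 over all 7. Across libraries, WT pre-pro-B replicate 2 had the lowest value of 6 of the 8 members and Lf-/- pre-pro-B replicate 2 the highest value of 5.

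The wider erythroid program was taken from 6 lists of genes, 69 in all with 68 measured. Of the 7 embryonic and minor globins, none of the embryonic genes Hba-x, Hbb-y and Hbb-bh1 exceeded 0.31 FPKM, and Hbq1b was the highest, at 2.16 to 8.34 FPKM in 6 libraries and not above 0 in the remaining library. Hbq1b was also the gene of the 6 lists that was higher in pro-B cells by the unadjusted test (1.57 ± 0.51 SE, limma adjusted p = 0.947), beside 1.25% of all genes higher and 1.16% lower. Heme synthesis, with all 12 genes tested, had none with an unadjusted p under 0.05 in the genotype, stage or interaction fits. Tmem14c, a mitochondrial porphyrin transporter, led it with 155 to 297 FPKM, before Alad (39.5 to 107 FPKM) and Urod (27.4 to 51.0 FPKM), enzymes of the pathway. Of the 5 heme breakdown and transport genes tested, Hmox1, which opens the heme ring, was lower in pro-B cells by the unadjusted test (-0.87 ± 0.33 SE, limma adjusted p = 0.947), and Blvrb (66.4 to 120 FPKM) and Hmox2 (18.2 to 84.7 FPKM) did not pass in any fit.

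Membrane genes were led by the Rh protein Rhd (32.2 to 73.2 FPKM), and the related Rhag stood at 9.14 to 20.7 FPKM, and none of the list passed in any fit. Sptb and Ank1, of the membrane skeleton of the mature red cell, did not exceed 0.83 FPKM in any library. Of the transcription factors, Nfe2 was highest (20.2 to 148 FPKM), followed by Gfi1b and Lmo2. Cbfa2t3, a corepressor of the Gata1 complex, was higher in Lf-/- pre-pro-B cells by the unadjusted test (1.55 ± 0.61 SE, limma adjusted p = 0.941) and over both stages (1.06 ± 0.43, limma adjusted p = 0.655). Gata2, a factor of progenitors and mast cells, was lower in Lf-/- pre-pro-B cells (-1.61 ± 0.53, limma adjusted p = 0.941), and its interaction was 2.28 ± 0.77 (limma adjusted p = 0.990). In the list of enzymes and maturation genes, the carbonic anhydrases Car2 (153 to 292 FPKM) and Car1 (129 to 346 FPKM) and the peroxidase Prdx2 (50.4 to 162 FPKM) were highest, and no gene passed in any fit. Together, 1 gene of the 6 lists was higher and 1 lower of 51 tested in pre-pro-B cells, with a median difference of -0.27, and 1 was higher and 0 lower of 55 over both stages, with a median of -0.07. Shares of all genes for the same calls were 2% higher and 0.926% lower in pre-pro-B cells, and 6.48% and 0.695% over both stages.

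Genes of these lists parted from each other in Lf-/- pre-pro-B replicate 2. Of 50 with a median of 1 FPKM or more in the other 6 libraries, 15 were at least 2-fold above that median, 22 were within 2-fold, 6 were lower and 7 were listed at 0. For all 9423 genes of that level, 24.5% were at least 2-fold above and 13.3% listed at 0, close to the 30% and 14% of the erythroid genes. For the members the counts were 5 of 8 higher, 2 within 2-fold and 1 at 0. The following genes were picked after their values were seen. Bpgm, which makes the red cell regulator of oxygen affinity, stood at 60.04 FPKM against a median of 5.85 in the other 6 libraries, and the transferrin receptor Tfrc at 11.1 against 2.27. In contrast Rhd (62.5 against 48.8 FPKM) and Car1 (209 against 175 FPKM) lay near their medians, and the water channel Aqp1 (median 8.34 FPKM) and Ermap (median 4.67 FPKM) were listed at 0. With the globin sum, Epor, the erythropoietin receptor, had r = 0.86 over 7 libraries and 0.95 over the 6 others, and Bpgm 0.85 and 0.81. Of 55 erythroid list genes, 4 had r of 0.8 or more, or 7.27%, against 2.76% of all genes, and their median r was 0.21 against 0.22.

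Promoters of the members were searched for known elements of erythroid promoters, and the part of these elements in the levels was not tested. RefSeq starts on GRCm38.p6 were at hand for 7 members, not for Slc4a1 and Ahsp. The 250 bases before each start were searched on both strands for GATAA, the core of the GATA site, for CCACACCC, a Klf1 site, for the CCAAT box, for the TATA box written as TATAAA, and for its variant ATAAAA. The GATA core was found in 6 of the 7 promoters, against 22.6% of 32851 promoters, and the CCAAT box in 5 (33.8%). The letters TATAAA were found in 2 (12.4%), ATAAAA in 1 (17.0%) and the Klf1 site in 1 (3.2%). The last was in Hbb-bs. Of the TATAAA matches, that of Hbb-bt lay 28 to 23 bases before the start, on the gene's strand. That of Alas2 lay 209 to 204 bases before the start, on the opposite strand. Gata1 held none of the searched letters in its window. The 30 bases that open 5 bases before the farthest match within 100 bases of the start are shown 5′ to 3′ on the gene's strand, with matches in capitals, for the 6 members with such a match.
Hba-a1: accagCCAATgagaactgctccaagggcgt
Hba-a2: accagCCAATgagaactgctccaagggcgt
Hbb-bs: tagagCCACACCCtggtaagggCCAATctg
Hbb-bt: ctggcATTGGCCAATctgctcagagaggac
Alas2: ttgctTTTTATCtttagcagaggcctgaga
Klf1: gggtcTTATCagggaagacagCCAATcaga
These windows are chr11:32283579-32283608, chr11:32296396-32296425, chr7:103827997-103828026, chr7:103813979-103814008, chrX:150547324-150547353 and chr8:84901897-84901926, in the order shown. Matches on the opposite strand stand as their reverse complement. In Alas2 the reverse complements of the GATA core and of the TATA variant overlap, and in Hbb-bt the CCAAT matches on both strands abut. The α-globin promoters are identical over 247 bases at an offset of 3 bases. A match is a description and not a bound site.

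Over all genes, the pattern most like the mean of the members, each centred on its own mean, was that of Slc3a2 (Pearson r = 0.96 over 7 libraries, 29.95 to 56.75 FPKM), the heavy chain of amino acid transporters. It was followed by Abhd16a (r = 0.96), the mitochondrial tRNA mt-Tw (r = 0.95), Chmp4b, Slc27a4, St3gal4, Rangap1, C530050E15Rik, Sntb2 and the pseudogene Gm20545 (r = 0.94). Of the 10, 6 were also in the first 10 by Spearman correlation. No erythroid list gene was among them, and the members themselves had r between -0.38 (Gata1) and 0.97 (Hbb-bt) with their mean.

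Markers of other cells went with genotype in these libraries. Over both stages, 14 of 15 early B lineage genes tested were higher in Lf-/- libraries at an unadjusted p of 0.05. So were 7 of 8 mature B cell genes and 5 of 6 plasmacytoid dendritic cell genes. Siglech, of the last list, did not pass (1.11 ± 0.81 SE), and Ly6d was the highest gene of that list in every library. No gene of these lists was lower at that threshold, beside 6.48% of all genes higher and 0.695% lower. With median-ratio scaling the calls over all genes were 436 higher and 370 lower, against 699 and 75. Of the neutrophil list, 5 of 18 genes were lower, namely Ctsg, Elane, Ltf, Mpo and Prtn3. Ltf is the targeted gene, so its lower level was set by the knockout and does not mark a cell type here. It was also the only gene of that list to pass after adjustment (limma, adjusted p = 0.00206). Also lower by the unadjusted test were C1qa, Ly6c2 and Vcam1 of 10 monocyte and macrophage genes and Nkg7 of 8 T and NK cell genes. The same held for Prg2 of 7 eosinophil genes and Pf4 of 6 megakaryocyte genes, and of 5 mast cell and basophil genes none passed. The part of these cell types in the erythroid values was not tested.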

How the data were processed

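RNA of sorted pre-pro-B and pro-B cells was sequenced by the authors, and 1 table per library with a value per gene was deposited. The submitters' processing notes name TopHat, Cufflinks, HTSeq, DESeq and GRCm38, with no role or version. The deposited values were taken to be FPKM, which the headers do not state, from their sums, the even steps of value times transcript length and the tools named; how reads shared by near-identical copies were assigned is not given in the sources used here. Groups came from the labels. Genes were matched by identifier to GENCODE M21 (52403 of 52550).

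Genes that reached 1 FPKM in 2 or more libraries of a fit were tested on log2(FPKM + 1) with limma 3.58.1 (R 4.3.3, mean-variance trend, two-sided, Benjamini-Hochberg adjustment over all genes tested). Fold changes are on this scale and understate low genes. All 8 measured members passed the filter. The depth of 6 libraries was read from the even steps of FPKM times length in genes with 1 transcript of at least 800 bases. The fits were tested on simulated data. Python 3.11.15 (pandas 2.3.3, numpy 2.4.6, Biopython 1.88) did the rest.

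Named genes were all members, the 3 highest genes of a list, list genes with an unadjusted p under 0.05 and the 10 genes most like the members; some results are not reported here. Members and lists were chosen with earlier results of these data known. Alternatives were another pseudocount (0.1), filter and scaling, a replicate block and leaving out each library.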

Additional observations from a re-analysis of the deposited data

Results flagged for a closer look

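Gata1 was singled out because both Lf-/- libraries lay below both WT libraries in pre-pro-B cells (8.05 and 0 against 18.3 and 12.1 FPKM) while both lay above the WT library in pro-B cells (13.2 and 18.5 against 11.5 FPKM). Of 9720 genes, 17.7% were lower without overlap in pre-pro-B cells. The pro-B side rests on 1 WT library, and the median of all genes there was shifted by 0.48. The share of all genes with both patterns was not computed. The difference between the 2 genotype effects was 2.81 on the log2(FPKM + 1) scale (limma, adjusted p = 0.990), so it did not pass the test. It was 1.22 without Lf-/- pre-pro-B replicate 2, in which Gata1 was listed at 0.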

How the results depend on the processing

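No member had passed a test, and the 2-fold difference of Alas2 in pro-B cells (1.27) fell below 2-fold with median-ratio scaling (0.65), quantile normalization (0.67) and without Lf-/- pro-B replicate 1 (0.89). The counts of genes called moved widely. Leaving out each library in turn gave 140 to 4416 genes at an unadjusted p of 0.05 in pre-pro-B cells (284 with all), the highest without Lf-/- pre-pro-B replicate 1, 425 to 3033 over both stages (774), 139 to 1763 between stages (260), 90 to 2920 for the interaction (296), and 1422 to 2138 genes 2-fold apart in pro-B cells (1462). The interaction could not be fitted without the WT pro-B library, and a group left with 1 library was assumed to vary like the others. Without a filter the counts were 649 in pre-pro-B cells, 626 between stages and 1608 for the interaction; with at least 1 FPKM in every library they were 156 between stages and 152 for the interaction. A pseudocount of 0.1 gave 195 for the interaction and 2853 in pro-B cells. Median-ratio scaling, quantile normalization and TPM gave 818, 765 and 2464 in pro-B cells, and the first 2 gave 139 and 170 for the interaction; over both stages they turned 699 higher and 75 lower into 436 and 370, and 424 and 404. All 7 libraries in 1 fit gave 528 in pre-pro-B cells. The cause of these shifts was not tested.

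The replicate block gave 532 in pre-pro-B cells and 456 for the interaction, and under it Alas2 and Gata1 passed the unadjusted threshold in pre-pro-B cells and Gata1 in the interaction, at 3.36. With it 65 genes passed the adjusted threshold in pre-pro-B cells, with 1 residual degree of freedom, against 0 without it. Replicate differences of the groups correlated at 0.04, 0.05 and -0.01 over genes, which did not meet the bar for treating the numbers as pairs; the globin ratios that split by replicate number were not part of this check, and what same-numbered samples share is not given in the sources used here. Under this block Klf1 turned to 0.025 between stages and to -0.29 in the interaction.

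Members' differences turned sign with single libraries. Leaving out each in turn, the log2 ranges in pre-pro-B cells were -0.23 to 2.10 for Hba-a2, -0.26 to 2.13 for Hbb-bs, -0.16 to 1.99 for Hbb-bt, -0.68 to 4.10 for Alas2, -0.53 to 0.34 for Slc4a1 and -0.55 to 1.09 for Klf1. Over both stages they were -0.030 to 1.13 for Hba-a2, -0.14 to 0.29 for Slc4a1 and -0.10 to 0.72 for Klf1. Between stages they were -0.21 to 0.69 for Hba-a1, -0.14 to 0.72 for Hba-a2, -0.49 to 0.70 for Hbb-bs, -0.33 to 0.74 for Hbb-bt, -1.97 to 0.42 for Alas2 and -0.53 to 0.29 for Klf1. In the interaction they were -1.50 to 0.30 for Hba-a1, -1.93 to 0.40 for Hba-a2, -1.54 to 0.85 for Hbb-bs, -1.61 to 0.53 for Hbb-bt, -2.83 to 1.95 for Alas2, -0.10 to 0.77 for Slc4a1 and -0.74 to 0.89 for Klf1. Leaving out 1 library also brought members past the unadjusted threshold. In pre-pro-B cells these were the 4 globins and Alas2 (2.81) without WT pre-pro-B replicate 1, Alas2 (4.10), Klf1 (1.09) and Gata1 (-3.99) without Lf-/- pre-pro-B replicate 1, and Gata1 (-2.68) without WT pre-pro-B replicate 2. Without Lf-/- pre-pro-B replicate 1, Alas2 also passed over both stages (2.69) and between stages (-1.97), and Gata1 in the interaction (4.40). Without the WT pro-B library, Gata1 passed over both stages (-2.40) and between stages (2.47). Median-ratio scaling and quantile normalization turned Slc4a1 to -0.26 and -0.31 over both stages and to -0.080 and -0.067 in the interaction, where Klf1 became -0.38 and -0.43; median-ratio scaling turned Klf1 to -0.054 over both stages.

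Without the neutrophil list in the total, the members' share was 11.2% in WT pro-B and 12.5% in Lf-/- pro-B libraries. As a share of protein-coding genes it was 5.57% in WT pro-B cells. By Spearman correlation, 6 of the 10 genes most like the members were shared.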
